A study of Mus musculus with 24 samples.

Results

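The untreated epithelial fraction of mouse lung organoids is described here: the cells recovered by magnetic sorting for EpCAM, an adhesion molecule on the surface of epithelia, from wells that received no fibers and were kept for 7 days. All libraries titled as control epithelial cells belong to it, which makes 4 of the 24 libraries of the series, from mice numbered 1 to 4. The choice used the titles only and no measured value.

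The series concerns what nylon 6,6 fibers do to such cultures. EpCAM-positive cells of wild-type female C57BL6 mice, whose age is not given in the labels, were seeded with CCL206, a lung fibroblast line derived from a male ddY mouse, at 200000 cells of each in Matrigel. The fibroblast line was present in every well, controls included, and being a single line it carries no biological variation of its own between mice. Each mouse was an isolation of its own and supplied wells with 0, 12000 or 30000 fibers, and the exposed epithelial fractions (4 libraries each) are used here only for tests that need them. EpCAM was the handle of both the seeding and the recovery, so the level of Epcam checks the sorting and is no finding.

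As background, the airway is lined by basal stem cells, secretory club and goblet cells and multiciliated cells, while the alveoli hold flat type 1 cells for gas exchange and cuboidal type 2 cells that make surfactant and renew both types. In organoid culture, type 2 cells are known to pass through a stretched, keratin 8-rich transitional state on their way to type 1 cells, and fibroblasts supply signals that sustain epithelial growth. Which of these programs a mixed EpCAM-positive culture keeps can be read from its transcripts, since keratins, surfactant proteins, secretoglobins and cilia genes belong to few cell types each.

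Values are given as CPM, counts per 1000000 counts on the transcript chosen to represent each gene, and genes are compared with each other only as CPM per kb of that transcript; ± is the SD over the 4 mice. Summed counts over all listed transcripts ran from 21222034 to 28232472 per control library, and the representative transcripts held 33.9 to 34.7% of them. Of 14557 genes, 13138 (90.3%) reached 1 CPM in all 4 libraries, 9605 had a mean of at least 10 CPM, 2223 of at least 100 and 66 of at least 1000. The median gene stood at 7.56 CPM per kb, the 90th percentile at 38.5 and the 99th at 208.7, so levels above 38.5 are called the top decile below. Libraries of different mice had Pearson r of 0.979 to 0.991 across the 13138 genes (log2 CPM), lowest between mice 1 and 3; genes are not independent replicates, and no test was made. Expression per kb hardly changed with transcript length, with medians of 7.26 to 8.06 CPM per kb in 5 length classes.

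Mitochondrial transcripts, Clu and Sftpc led the profile. Of the 20 named genes highest per kb, 8 were encoded by the mitochondrial genome, which took 7.77%, 6.87%, 5.20% and 5.92% of the counts in mice 1 to 4. Clu, the secreted chaperone clusterin, stood at 9464, 11923, 8008 and 8937 CPM in mice 1 to 4 (5295 CPM per kb). Sftpc was next among named nuclear genes with 2108 CPM per kb, ahead of the cytoskeletal genes Actb (1528) and Tmsb4x (1399), the surface glycoprotein gene Bsg (1478) and the secreted airway protein gene Wfdc2 (1252). The set also held Fn1 (fibronectin, 1134), Krt19 (a simple-epithelium keratin, 1010.0) and Cbr2 (a club cell carbonyl reductase, 826 CPM per kb).

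The 6 genes used to check the label were all present, at widely different levels. Epcam (chromosome 17, 87636682 to 87651129, GRCm38) stood at 743, 643, 604 and 609 CPM in mice 1 to 4, or 649.7 ± 64.4 CPM. Krt8 (chromosome 15, 101996698 to 102004482, GRCm38), a keratin of simple epithelium, stood at 942, 1106, 871 and 927 CPM. Both were close in all mice, with mouse 1 highest for Epcam and mouse 2 for Krt8. Sftpc (chromosome 14, 70520953 to 70524081, GRCm38), the surfactant protein that marks type 2 cells, stood at 912, 2095, 2085 and 1586 CPM, or 1669 ± 558 CPM. Krt5 (chromosome 15, 101707070 to 101712898, GRCm38), the basal cell keratin, stood at 916, 811, 489.6 and 589 CPM, or 702 ± 196 CPM. Mouse 1 was thus lowest for Sftpc and highest for Krt5. Foxj1 (chromosome 11, 116330704 to 116335399, GRCm38), the master factor of motile cilia, stood at 75.6, 50.5, 50.1 and 65.9 CPM, or 60.6 ± 12.4 CPM. Scgb3a2, a secretoglobin of club cells, stood at 42.7, 30.9, 15.8 and 45.1 CPM, or 33.6 ± 13.4 CPM, with mouse 3 far below the other mice. Per kb they ranked 9 (Sftpc), 50 (Krt8), 71 (Epcam), 84 (Krt5), 1394 (Scgb3a2) and 2792 (Foxj1) among 14466 genes with a known length. In bulk RNA, fewer cells of a type and less RNA per cell cannot be told apart, here and in every level below. The level in CPM also rests on the transcript choice: with all listed transcripts of each gene summed, the means were 339 CPM for Krt8, 1005 for Sftpc, 247 for Krt5, 21.3 for Foxj1 and 539 for Epcam.

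All 28 pan-epithelial genes of the list reached 1 CPM in every mouse, 27 of them lay above the median gene and 18 in the top decile, with a list median of 66.3 CPM per kb. The keratins Krt19 (1789, 1714, 1373 and 1491 CPM in mice 1 to 4) and Krt18 (1063, 1133, 1069 and 1094 CPM) were accompanied by the tight junction gene Cldn4 (725, 884, 771 and 765 CPM) and the adherens junction gene Cdh1 (1421, 1555, 1319 and 1388 CPM). Mouse 3 was lowest for 22 of the 28 genes, against 26.7% of all genes with at least 1 CPM in each mouse. The differences were small, with a median CV of 8.64% against 10.4% over all genes. The protease inhibitor gene Spint2 reached 366 CPM per kb and the splicing factor gene Esrp1 48.5.

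**Figure D1:**
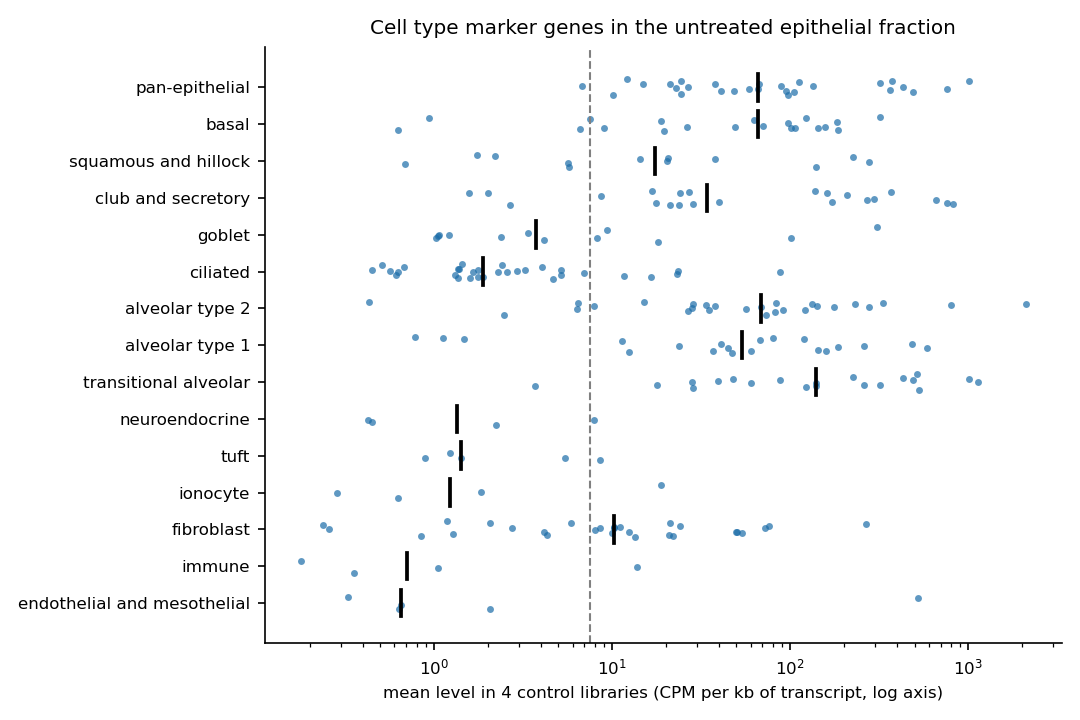
Mean level of every measured member of 15 marker lists in the 4 untreated libraries (horizontal log axis, CPM per kb of transcript). Each point is a gene, the black bar is the list median and the dashed line is the median of all genes (7.56); pan-epithelial, basal, alveolar and transitional lists lie mostly to its right, and ciliated genes mostly to its left.

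Basal cell genes had nearly the same median level as type 2 genes. All 20 were measured, 19 reached 1 CPM in all mice and 12 were in the top decile, with a list median of 66.5 CPM per kb. Beside Krt5, the basal keratin gene Krt15 stood at 479.7, 317, 235 and 217 CPM in mice 1 to 4, and Krt14 at 217, 228, 135 and 144 CPM. Mouse 1 was the highest for Krt15 and mice 1 and 2 were above mice 3 and 4 for Krt14. The hemidesmosome integrin gene Itgb4 stood at 999, 766, 708 and 739 CPM and the laminin chain gene Lamb3 at 750.4 ± 51.4 CPM, the latter with little spread. Trp63, the lineage factor of basal cells, was at 26.4 CPM per kb and the nerve growth factor receptor gene Ngfr, a surface marker of these cells, at 19.7. The desmosomal Dsc3 (0.626) and the factor Bcl11b (0.939) lay far below the median gene. Squamous and hillock genes were lower as a list (12 of 18 measured, median 17.4 CPM per kb): the secreted matrix protein gene Ecm1 stood at 657, 397, 559 and 499.7 CPM, the cornified envelope gene Sprr1a at 117, 96.8, 123 and 112 CPM, and Krt13, the keratin that defines hillocks, at only 14.3, 11.5, 6.38 and 5.66 CPM. Mouse 1 was highest for Ecm1 and Krt13, and mouse 3 for Sprr1a.

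Club and secretory genes formed the most uneven airway list. Of 22 measured, all reached 1 CPM, 11 were in the top decile and the median was 34.2 CPM per kb. Cbr2 stood at 1223, 734, 619 and 1089 CPM in mice 1 to 4, and Bpifa1, a surfactant-like airway defense protein, at 1225, 652, 479 and 999 CPM. Cyp2f2, the club cell cytochrome, stood at 724, 572, 307 and 608 CPM. In all 3 genes mice 1 and 4 exceeded mouse 3, which was the lowest of the 4. Scgb1a1, the classical club cell secretoglobin, was low against these, at 8.79, 16.5, 5.73 and 15 CPM (24.2 CPM per kb), with mouse 2 highest. Scgb3a1, a secretoglobin of larger airways, stood at 174, 71.7, 41.1 and 124 CPM. Its level per kb was 172, above Scgb3a2 (39.9) and Scgb1a1. Other club cell enzymes varied as widely, from Gsto1 (660.5 CPM per kb) to Cyp4b1 (1.58).

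In the goblet list the membrane mucin genes Muc1 and Muc4 stood above the genes of gel-forming mucins. The list had 12 of 18 genes measured and a median of 3.74 CPM per kb, below the median gene. The membrane mucin gene Muc1 stood at 719.5, 651, 679.5 and 727 CPM in mice 1 to 4 and Muc4 at 1620.4, 829.9, 995 and 1149.9 CPM. Muc1 was even across mice, while Muc4 was highest in mouse 1. The gel-forming Muc5b stood at 73.1, 36.1, 34.5 and 103 CPM (4.13 CPM per kb) and Muc5ac at 12.6, 9.33, 8.59 and 15.7 CPM (1.07). For both, mice 1 and 4 were above mice 2 and 3. Agr2, which folds mucins, stood at 18 CPM per kb, and Spdef, the goblet lineage factor, at 1.02. Muc5b, Muc5ac and Spdef thus all lay below the median gene.

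Cilia genes were low. Of 38 listed, 31 were measured and the other 7 were not analysed here. All 31 reached 1 CPM in every mouse, as did 90.3% of all genes. Only 5 exceeded the median gene, and the list median was 1.89 CPM per kb. Foxj1 itself (23.1 CPM per kb), the tubulin gene Tubb4b (87.6), Tppp3 (23.3), Cyp2s1 (16.6) and the tubulin gene Tuba1a (11.6) made up these 5, and Tubb4b, Cyp2s1 and Tuba1a are also made by other cells. Structural genes of the axoneme stood lower: the radial spoke gene Rsph1 at 7.29, 6.12, 4.95 and 6.27 CPM in mice 1 to 4, Lrrc23 at 9.83, 8.07, 5.47 and 6.97 CPM, and the outer dynein arm heavy chain gene Dnah5 at 12.3, 9.14, 6.51 and 11.2 CPM. Each was highest in mouse 1. Mouse 3 was the lowest of the 4 for 26 of the 31 genes, against 26.7% of all genes with at least 1 CPM in each mouse.

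Promoters of 4 of these cilia genes are shown because they carry the core of the RFX binding site. Some RFX proteins switch on cilia genes together with Foxj1. Rfx2 and Rfx3, the members of the family in the cilia list, stood at 4.06 and 2.93 CPM per kb, below the median gene. Rfx1, Rfx5 and Rfx7, which are not in that list, stood at 8.6, 13.2 and 15.6. GTTGCC on either strand stood in the 250 bases before the start of 9 of 25 cilia genes with a RefSeq promoter (36%), against 10.6% of 10009 promoters of expressed genes. The windows below are from RefSeq (GRCm38.p6), 5′ to 3′ on the strand of the gene, with the match in capitals, at chr6:124779734-124779793 (minus strand), chr8:116504937-116504996 (plus), chr13:112987556-112987615 (plus) and chr17:56831092-56831151 (minus).
Lrrc23: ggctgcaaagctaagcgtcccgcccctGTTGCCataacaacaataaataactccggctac
Dynlrb2: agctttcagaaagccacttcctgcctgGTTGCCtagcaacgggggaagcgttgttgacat
Ccno: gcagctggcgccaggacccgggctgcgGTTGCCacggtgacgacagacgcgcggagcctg
Rfx2: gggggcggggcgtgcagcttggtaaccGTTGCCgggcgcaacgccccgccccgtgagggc
The 4 genes stood at 5.16, 4.65, 1.66 and 4.06 CPM per kb. The full palindromic X-box was in 0 of the 25 (0.46% of all), and a looser form of it in 3 of them (12% against 4.47%); both can overlap the core. In all, 11 motifs were searched on both strands in 5 lists, the others being CAAACA, AACCGGTT, a longer motif with no match in these lists, and those named next. In type 2 promoters the TEAD core CATTCC was in 7 of 19 (36.8%, against 10.3% of all), the forkhead site TGTTTAC in 4 of 19 (21.1% against 2.13%) and the NKX2-1 core CTCAAG in 2 of 19 (10.5% against 12.7%). In club and secretory promoters ACCNGNT, a core for grainyhead factors, was in 9 of 17 (52.9% against 25%), CTCAAG in 4 of 17 (23.5%) and the AP-1 site TGACTCA in 2 of 17 (11.8% against 3.24%). TGTTTAC was also in 2 of the 25 cilia promoters (8%) and 1 of 8 basal promoters (12.5%), and CATTCC in 3 of 17 club and secretory promoters (17.65%). ACCNGNT was in 9 of 25 cilia (36%), 6 of 17 type 1 (35.3%), 2 of 8 basal (25%) and 3 of 19 type 2 promoters (15.8%). These motifs were thus not particular to 1 list. No test was made of these shares. A match is a description of these letters and not of a bound site.

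Alveolar type 2 genes were led by Sftpc, but the surfactant genes were far from even. Of 29 listed genes 27 were measured, 15 were in the top decile and the median was 68.3 CPM per kb. Sftpd, the surfactant lectin, stood at 283, 317, 257 and 318 CPM in mice 1 to 4. Sftpb, which every surfactant film needs, stood at 28.7, 36, 33.1 and 33.7 CPM, and Sftpa1, the most abundant surfactant protein of the adult lung, at 12.7, 35.3, 20.2 and 22.6 CPM. Per kb, Sftpc (2108) exceeded Sftpd (231), Sftpb (28.2) and Sftpa1 (7.96) in every mouse. The lipid enzyme genes Scd1 and Fasn of the list were high. Scd1, the stearoyl-CoA desaturase, stood at 2529.6, 4187, 4916 and 3837 CPM, and the fatty acid synthase gene Fasn at 83.2 CPM per kb. Bulk RNA cannot say which cells of the fraction made them. The lamellar body genes Abca3 (35.1) and Lamp3 (33.7) were just below the top decile, and the processing protease gene Napsa (68.3) was in it. Lyz2, a lysozyme of mature type 2 cells and of macrophages, stood at 53.3, 78.5, 152 and 149 CPM, with mice 3 and 4 above mice 1 and 2.

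Genes of type 1 cells and of the transitional alveolar state were also widely expressed. For type 1 cells 20 of 21 genes were measured, 13 in the top decile, with a median of 53.8 CPM per kb. The water channel gene Aqp5 stood at 1068, 888, 702 and 819.7 CPM in mice 1 to 4, the receptor gene Ager at 97.1, 191, 182 and 187 CPM and Hopx at 45.7, 56.5, 57.9 and 66.2 CPM. Ager and Hopx were lowest in mouse 1, and Aqp5 was highest there. Krt7 (589 CPM per kb) and Aqp5 (484) are also made by airway cells, whereas Rtkn2 (1.48) and Spock2 (0.782), markers of mature type 1 cells, were below the median gene. The transitional list had the highest median of the cell type lists, 139.7 CPM per kb with 16 of 20 genes in the top decile. Beyond Krt8, Krt19 and Cldn4 it held the stress and growth arrest genes Sfn (481, 447, 363 and 393 CPM in mice 1 to 4), Cdkn1a (231, 298, 313 and 325 CPM) and Nupr1 (905, 725, 717 and 792 CPM). Sfn and Nupr1 were highest in mouse 1, and Cdkn1a lowest there. The list shares Krt8, Krt19 and Cldn4 with the pan-epithelial list, and many of its genes are expressed by any epithelium.

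Rare epithelial cells left few transcripts. For neuroendocrine cells 4 of 13 listed genes were measured, for tuft cells 5 of 12 and for ionocytes 4 of 8, with medians of 1.34, 1.42 and 1.24 CPM per kb, and the remaining genes of these lists were not analysed here. Their highest members were the factor Meis2 (43.5, 18.9, 30.3 and 25 CPM in mice 1 to 4), the phospholipase gene Plcg2 (38.6, 40, 34.8 and 34 CPM) and the proton pump gene Atp6v1c2 (25.2, 31.5, 29 and 32.4 CPM). None of these 3 is restricted to the cell type. Cftr, the chloride channel that ionocytes express most, was nearly constant at 11.4, 11.8, 11.2 and 12.1 CPM.

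Of other cell types, fibroblast genes were the clearest. For 28 of 30 listed genes measured, the median was 10.2 CPM per kb, 25 reached 1 CPM in all mice, and their summed level was 2033, 2857, 4079 and 3022 CPM in mice 1 to 4. Col1a1, the main chain of fibrillar collagen, stood at 170.3, 292, 436 and 283 CPM, and Col1a2 at 129, 262, 430.2 and 257 CPM. Both were lowest in mouse 1 and highest in mouse 3. The mesenchymal receptor gene Pdgfra was at 20.8, 32.5, 58.2 and 41.8 CPM, and Pdgfrb at 2.78, 4.86, 6.9 and 3.84 CPM. Kdm5d, a Y-linked gene that cells of a female mouse lack, was detected at a low level in all 4 libraries, at 3.01, 1.65, 1.17 and 2.43 CPM. The other 3 Y-linked genes of the list, Ddx3y, Uty and Eif2s3y, were not analysed here. Xist, made from the inactive X, was at 3238, 2748, 3439.8 and 3428 CPM, and whether reads of its antisense gene are included is unknown. The order of the mice for Kdm5d, with mouse 1 highest, was not that of the collagen genes, but levels this low rest on few reads. Of immune genes 4 of 20 were measured, and 1 was above the median gene: Cd68, a lysosomal protein of macrophages that other cells also make, stood at 14.9, 12.7, 19.8 and 20.4 CPM in mice 1 to 4 (13.8 CPM per kb). The receptor gene Csf1r stood at 4.16, 4.18, 5.21 and 6.27 CPM, the macrophage lectin gene Mrc1 at 0.231, 1.65, 0.651 and 1.31 CPM and the B cell gene Cd79a at 0.355 CPM per kb. Among 5 of 16 measured endothelial and mesothelial genes the vessel marker Pecam1 was at 1.04, 1.65, 1.17 and 1.62 CPM, but Msln, a surface protein of mesothelium that some epithelia share, was at 1208, 1050.2, 986 and 1176 CPM (523 CPM per kb). None of the 5 hemoglobin and heme synthesis genes of the red blood cell list was analysed here. The part of fibroblast RNA in any level given here was not tested.

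Transcription factors as a family (180 of 205 measured) had a median of 15.8 CPM per kb, and 31 were in the top decile. Factors of the lung endoderm were present together with those of the airway. Nkx2-1, which specifies lung epithelium, stood at 186, 218, 192 and 224 CPM in mice 1 to 4. Sox2, the factor of proximal airway, stood at 94.9, 74.2, 59.4 and 77 CPM, and Sox9, that of the distal bud tip, at 61.1, 65.6, 71.7 and 61 CPM. Nkx2-1 was even across mice, and Sox2 was highest in mouse 1. Other lung factors were Foxa1 (55.2 CPM per kb), Foxa2 (27), Cebpa (34.8), Gata6 (15.9) and Etv5 (15.2, a target of FGF signaling). Hnf4a, a factor of gut and liver, was at 0.384. The airway group included the epithelial ETS factors Elf3 (221, 147, 175 and 202 CPM) and Ehf (314, 252, 214 and 274 CPM) and the Kruppel-like factors Klf5 (268, 227, 218 and 256 CPM) and Klf6 (109.6 CPM per kb). Elf3 and Ehf were highest in mouse 1. Of 18 measured mesenchymal and EMT factors none was in the top decile, with Zeb1 at 2.8, Twist1 at 1.18 and Foxf1 at 1.15.

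Factors that answer stress and signals were the highest of the family, with 19 of 59 measured in the top decile and a median of 30.0 CPM per kb. Ctnnb1, the WNT effector beta-catenin and also a junction protein, stood at 1926, 2069.9, 1829 and 1827 CPM in mice 1 to 4. The immediate early genes were high and variable: Jun stood at 858, 585, 829 and 979 CPM, Fos at 289.7, 127, 176 and 222 CPM and Atf3 at 249, 143, 196 and 268 CPM. Mouse 2 was the lowest for all 3. The oxidative stress factor Nfe2l2 (260.3, 282, 262 and 275 CPM) and the YAP partner gene Tead1 (34.3 CPM per kb) were expressed as well, Nfe2l2 with little spread. Ahr, the receptor for aryl hydrocarbons, stood at 253, 189.9, 175 and 206 CPM and the glucocorticoid receptor gene Nr3c1 at 18.6 CPM per kb. The estrogen receptor gene Esr1 was at 0.572 CPM per kb, far below the median gene.

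**Figure D2:**
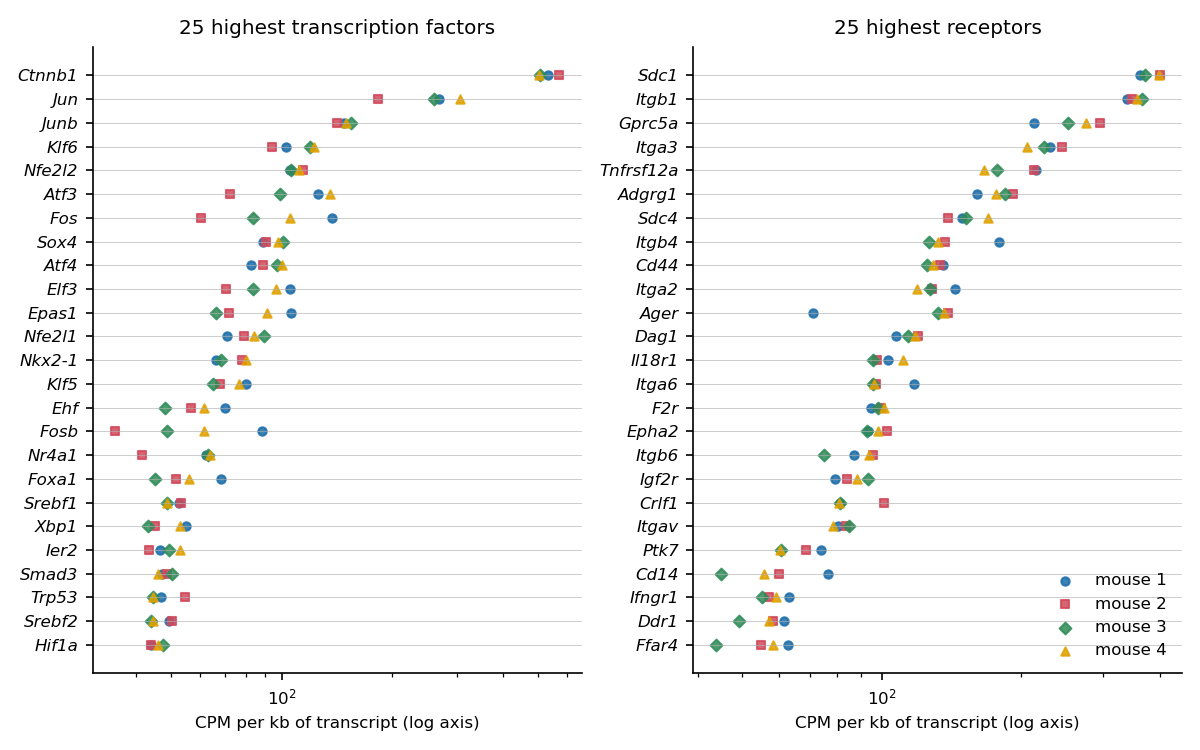
The 25 transcription factors (left) and 25 receptors (right) of the lists with the highest mean level in the untreated epithelial fraction (horizontal log axes, CPM per kb). Each symbol is a mouse; Ctnnb1 and Sdc1 are at the top, symbols overlap for most genes, and Fos, Fosb, Atf3 and Jun show mouse 2 lowest.

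Receptors (187 of 224 measured) had a median of 11.3 CPM per kb with 27 in the top decile, 11 of them integrins and matrix receptors. The heparan sulfate coreceptor gene Sdc1 stood at 1139, 1259, 1171 and 1257 CPM in mice 1 to 4, the integrin beta 1 gene Itgb1 at 1296, 1323, 1396 and 1359 CPM and its partner Itga3, a laminin receptor chain, at 1125, 1191, 1088 and 1004 CPM. These were even across mice. Growth factor receptors of epithelium were present at moderate levels: Erbb3 at 36.4 CPM per kb, the HGF receptor gene Met at 31.9, Fgfr2, the receptor for FGF7 and FGF10, at 27.1, Erbb2 at 25.7 and Egfr at 18.5. In the WNT group Lgr6, an R-spondin receptor, stood at 238, 167, 176 and 181 CPM with mouse 1 highest, and the coreceptor gene Lrp6 at 28.3 CPM per kb. Notch2 stood at 256, 275, 292 and 278 CPM and its ligand gene Jag2 at 144, 104, 86.6 and 108 CPM. Notch2 was lowest and Jag2 highest in mouse 1. The TGF-beta receptor genes Tgfbr1 (34.6 CPM per kb) and Tgfbr2 (25.8) were below the top decile.

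Receptors of inflammation were selective. Among 38 measured cytokine and TNF family receptors, the TWEAK receptor gene Tnfrsf12a (212, 209, 175 and 164 CPM in mice 1 to 4) and the IL-18 receptor gene Il18r1 (429, 406, 399 and 461 CPM) were the highest. Both varied little. The IL-4 and IL-13 receptor genes Il4ra (35.7 CPM per kb) and Il13ra1 (28.7) and the interferon gamma receptor gene Ifngr1 (58.6) exceeded the IL-1 receptor gene Il1r1 (7.91), the IL-33 receptor gene Il1rl1 (1.16) and the IL-22 receptor gene Il22ra1 (0.776). Of pattern recognition receptors, the lipopolysaccharide coreceptor gene Cd14 stood at 125, 98.3, 73.8 and 91.5 CPM, and Tlr3, Tlr5, Tlr4 and Tlr2 at 7.47, 4.8, 4.63 and 0.865 CPM per kb. G protein-coupled receptors had a low median (4.45 CPM per kb over 45 measured), above which stood Gprc5a (445, 618, 527 and 577 CPM), the adhesion receptor gene Adgrg1 (580.2, 696, 668 and 637 CPM) and the thrombin receptor gene F2r (317, 332, 328 and 338 CPM). Gprc5a and Adgrg1 were lowest in mouse 1.

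Secreted products (233 of 324 measured, median 16.8 CPM per kb) held 74 genes in the top decile. In the airway fluid group, Wfdc2 stood at 1339, 1053, 834 and 1026 CPM in mice 1 to 4. The transcytosis receptor gene Pigr, which exports antibodies, stood at 153, 54.4, 86.6 and 145 CPM, and the chitinase-like gene Chil1 at 169, 186, 558 and 390.2 CPM. Wfdc2 was highest in mouse 1, Pigr in mice 1 and 4, and Chil1 in mice 3 and 4. Antimicrobial genes (11 of 26 measured) included lactoferrin (Ltf, 1473, 732, 835 and 1018 CPM), the siderophore binder Lcn2 (259, 155, 398 and 336 CPM) and the lectin Reg3g (333, 211, 178 and 434 CPM). Mouse 1 was highest for Ltf, mouse 3 for Lcn2 and mouse 4 for Reg3g. Of complement and acute phase genes beyond Clu, haptoglobin (Hp, 378, 419, 263 and 390.0 CPM), ceruloplasmin (Cp, 1086, 676, 571 and 785 CPM) and complement C3 (416, 285, 329 and 337 CPM) were well expressed. Cp and C3 were highest in mouse 1, and Hp lowest in mouse 3.

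Chemokines and cytokines had list medians of 3.69 and 3.25 CPM per kb, below the median gene (7.56). Of 18 chemokines measured 17 reached 1 CPM in all mice and 4 were in the top decile, as were 3 of 22 cytokines. A mean of at least 10 CPM was reached by 6 of the 18 chemokines, against 9605 of all 14557 genes. They were Cxcl16 (72.2 CPM per kb), Cxcl17 (66.3), the lung chemokine Cxcl15 (56.8), Cx3cl1 (40), Cxcl5 (29.5) and Cxcl12 (7.49), the last a product of stroma. Spp1, osteopontin, stood at 706, 1125, 1677 and 1000.3 CPM in mice 1 to 4, lowest in mouse 1 and highest in mouse 3, in the order of Col1a1. The alarmin gene Il33 stood at 122, 107, 77.2 and 77 CPM, and Lif, a cytokine of the IL-6 family, at 205, 186, 168 and 182 CPM. Both were highest in mouse 1. Tnf (3.43 CPM per kb), Il1a (1.24) and Il6 (0.219) were below the median gene.

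Growth factors (35 of 41 measured) covered a wide range, with a median of 11.1 CPM per kb and 9 in the top decile. Ccn1 and Ccn2, matrix proteins and targets of YAP, stood at 954, 952, 1152 and 1204 CPM and 1081, 1272, 1448 and 1357 CPM in mice 1 to 4. The vessel growth factor gene Vegfa stood at 618, 497, 647 and 804 CPM, and the EGF receptor ligand gene Areg at 169.7, 161, 119.8 and 143 CPM. Mouse 4 was highest for Vegfa and mouse 3 lowest for Areg. The other EGF receptor ligands were Hbegf (60.1 CPM per kb), Ereg (20.1), Tgfa (11.3) and Egf (0.214). The stromal ligands of Fgfr2 and Met were low in this fraction, with Fgf7 at 2.17, Fgf10 at 0.543 and Hgf at 1.16. Among WNT ligands the epithelial Wnt7b stood at 129, 121, 116 and 117 CPM and Wnt4 at 9.79 CPM per kb. Wnt7b differed little between mice. Grem1, a BMP antagonist that fibroblasts make, stood at 112, 213, 396 and 275 CPM, again lowest in mouse 1 and highest in mouse 3.

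Matrix genes were among the highest secreted products, with 17 of 28 measured basement membrane and matrix genes in the top decile. Fn1 stood at 7587, 9293, 11032 and 8581 CPM in mice 1 to 4, and the type IV collagen chain gene Col4a1 at 951, 1609, 1803 and 1478 CPM. Both were lowest in mouse 1 and highest in mouse 3. The laminin alpha 5 gene Lama5 stood at 2275, 2034, 2117 and 2258 CPM and was even. Of 30 proteases measured 12 were in the top decile, and cathepsin H (Ctsh, 279 CPM per kb), which processes surfactant proteins, exceeded the membrane protease Mmp14 (159.9) and the secreted Mmp2 (22) and Mmp9 (1.35). The order within lists depends on the transcript used: with all transcripts of a gene summed and the length weighted accordingly, the same gene led in 19 of 35 lists, and between 2 and 6 of the top 6 were shared.

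**Figure D3:**
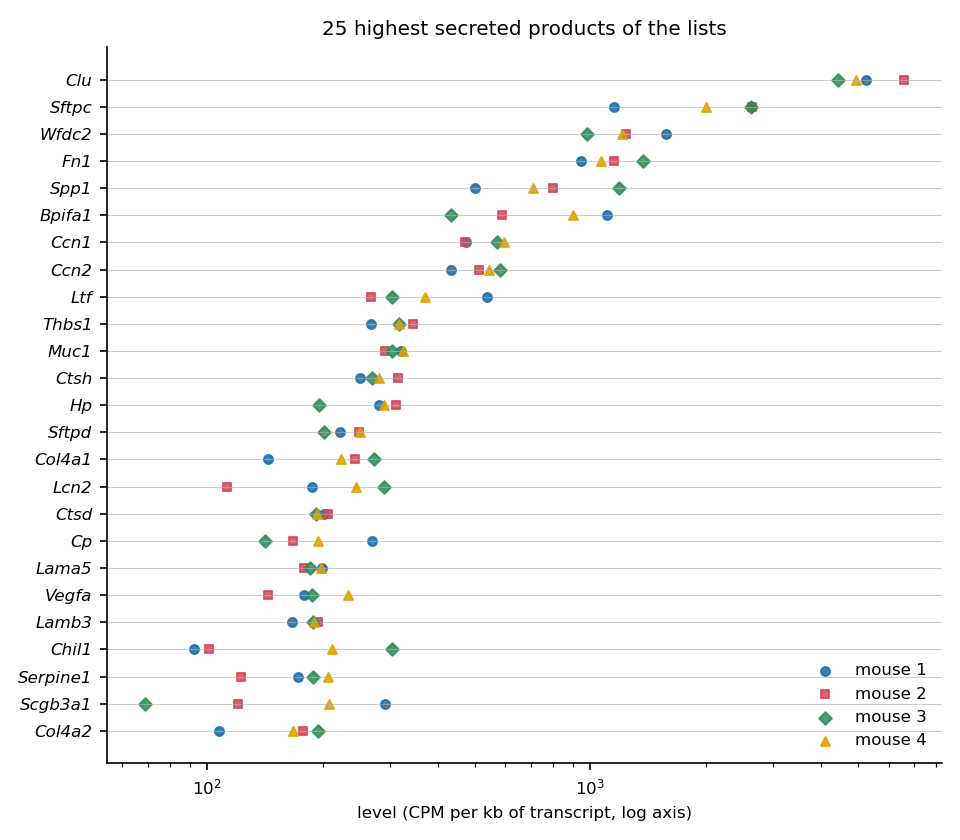
The 25 secreted products of the lists with the highest mean level in the untreated epithelial fraction (horizontal log axis, CPM per kb), each symbol a mouse. Clu lies above all others, mouse 1 is lowest for Sftpc, Spp1 and Col4a1, and Scgb3a1 and Chil1 show the widest spread.

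The mice differed in single genes and in the balance between lists. Over 13138 genes the median CV was 10.4%, the 90th percentile 27.6%, and 93 genes (0.708%) had a CV above 50%. The steadiest gene among those of at least 100 CPM was Csnk1a1, a casein kinase, at 299, 298, 296 and 297 CPM in mice 1 to 4, followed by the oligosaccharyltransferase gene Stt3b (193, 192, 192 and 191 CPM). The most variable named gene of at least 10 CPM was Bcan, a brain-type proteoglycan, at 9.6, 7, 31.9 and 19.4 CPM, followed by Scgb3a1, H2-Q6 (12, 9.82, 29.9 and 13.1 CPM) and Chil1. Mouse 3 was highest for Bcan, H2-Q6 and Chil1. H2-Q6, like the tubulin and keratin genes, has close copies in the genome, and reads shared between copies make its level uncertain. The mouse that was left out mattered for the count of variable genes, which was 56 without mouse 1, 205 without mouse 2 and 273 without mouse 4.

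Mouse 1 stood at one end for several lists and mouse 3 at the other. On the log2 scale the members of the fibroblast list lay on average 0.74 below the mean of the mice in mouse 1 and 0.62 above it in mouse 3, and of the 25 members with at least 1 CPM in each mouse 23 were lowest in mouse 1 and 23 highest in mouse 3. Over all 13138 genes mouse 1 was lowest for 29.7% and highest for 28.3%, and mouse 3 was highest for 25% and lowest for 26.7%. Type 2 genes shared the low position of mouse 1, where 23 of 25 were lowest (mean -0.53), and stood at 0.10, 0.28 and 0.14 in mice 2 to 4. Basal genes had mouse 1 highest for 16 of 19 (mean 0.36) and mouse 3 lowest for 12 (mean -0.25). Club and secretory genes were higher in mice 1 and 4 (0.27 and 0.27) than in mice 2 and 3 (-0.14 and -0.40), and goblet genes likewise (0.31 and 0.24 against -0.34 and -0.21). Cilia genes were lowest in mouse 3 (-0.36). The type 2 list thus ran in the direction of the fibroblast list across mice, and the basal and cilia lists against it. The part of fibroblast RNA in these differences was not tested.

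**Figure D4:**
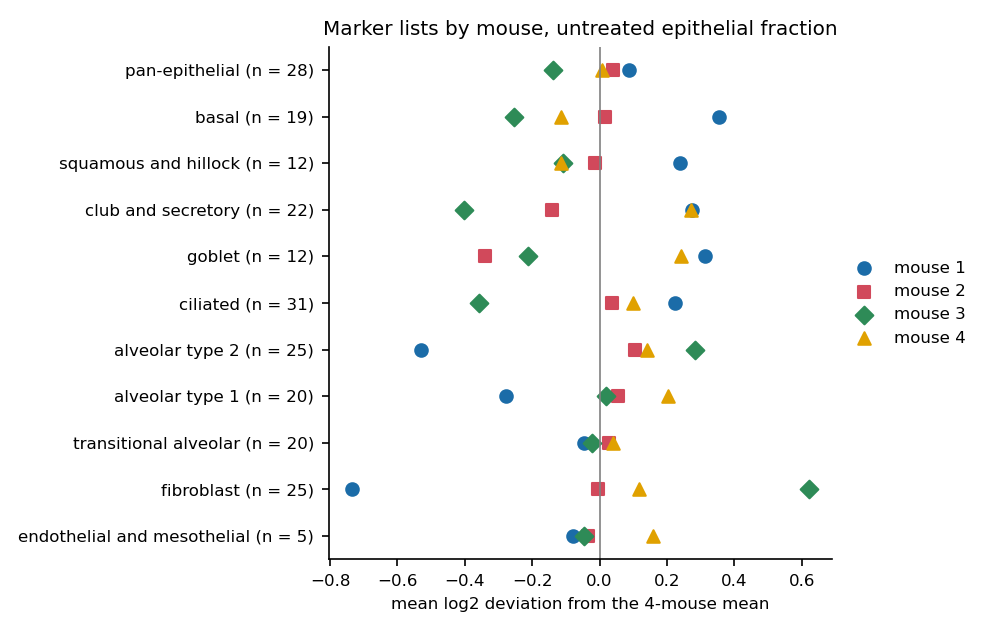
Mean log2 deviation of each marker list from the mean of the 4 untreated mice (horizontal axis), with the number of members at or above 1 CPM in every mouse. Fibroblast and type 2 lists have mouse 1 lowest and mouse 3 highest, whereas basal and cilia lists have mouse 1 highest and mouse 3 lowest.

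Whether mice differed across their wells was tested over the 12 epithelial libraries, with the fiber number in the model. The untreated wells, where the differences were seen, were among the 12, so the test does not isolate recurrence in other wells. Few genes passed: 20 of 13759, or 0.145% (edgeR quasi-likelihood test of the mouse terms, Benjamini-Hochberg adjusted p under 0.05). By the same test 8.67% had an unadjusted p under 0.05. With 4 mice, a gene that did not pass may still differ between them. No gene of the fibroblast, type 2, type 1, basal or cilia list was among them, and 4 of 22 club and secretory genes were. Reg3g had 333, 211, 178 and 434 CPM in untreated wells, 3.58, 0.799, 1.39 and 3.35 CPM with 12000 fibers, and 1.96, 0.353, 1.77 and 1.67 CPM with 30000 (adjusted p = 0.0019). Scgb3a1 (adjusted p = 0.0486), Scgb3a2 (adjusted p = 0.0214) and Bpifb1, a secreted lipid-binding protein (adjusted p = 0.0221), were the other 3, all by edgeR. Mouse 2 or mouse 3 was the lowest for these genes in untreated wells, and levels in exposed wells were a few CPM or less. DESeq2 gave an adjusted p of 0.618 for Reg3g, of 1.00 for Scgb3a1 and of 0.883 for Scgb3a2, and none of the 4 passed in edgeR without mouse 4, with transcripts summed or with control and 12000-fiber wells only. Without mouse 2 the edgeR adjusted p was 0.0581 for Scgb3a1 and 0.210 for Bpifb1, without mouse 3 it was 0.528 for Scgb3a2, and with no filter on low counts 0.0536 for Scgb3a1.

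Outside the lists of airway secretion, Adamts1 kept a steadier level across fiber numbers than Reg3g, Scgb3a1 and Bpifb1. The metalloprotease gene Adamts1 had 64.5, 64.5, 86.6 and 111 CPM in untreated wells, 80.5, 90.8, 106 and 112 CPM with 12000 fibers and 67.7, 77.6, 79.1 and 96.1 CPM with 30000 (edgeR adjusted p = 0.0195). Mouse 4 was highest at each fiber number. The phosphatase gene Ptpn22 (adjusted p = 0.00333) and the phosphatase regulator Ppp1r10 (adjusted p = 0.0119) were lowest in mouse 1 or 2 throughout, and the spindle gene Numa1 (adjusted p = 0.0291) was lowest in mouse 4 throughout, all by edgeR. The rule also named Ifi44, an interferon-induced gene (edgeR adjusted p = 0.0486), and Thbd, thrombomodulin (edgeR adjusted p = 0.0474). Of the genes so named, Ifi44 had the widest range between untreated mice after Scgb3a1. It was lower with 12000 fibers (log2 -1.32, edgeR adjusted p = 0.00649) and with 30000 (log2 -1.77, edgeR adjusted p = 0.00283). Numa1 was lower with 30000 fibers (log2 -0.86, edgeR adjusted p = 0.000401) but did not pass with 12000 (edgeR adjusted p = 0.529). The mouse-effect calls of these 6 genes depended on single mice too. Without mouse 4 the edgeR adjusted p was 0.937 for Numa1, 0.461 for Adamts1, 0.0947 for Ppp1r10, 0.259 for Thbd and 0.122 for Ifi44. Without mouse 2 it was 0.143 for Ptpn22, 0.0661 for Ppp1r10, 0.590 for Thbd and 0.825 for Ifi44, and without mouse 3 it was 0.0900 for Numa1, 0.0705 for Ppp1r10, 0.0605 for Thbd and 0.0519 for Ptpn22. With transcripts summed Ptpn22 alone of the 6 passed in edgeR (adjusted p = 0.0396; the others 0.110 to 0.308), and with control and 12000-fiber wells only none did (0.117 to 0.480). The count also rests on single mice: it was 71 without mouse 1, 12 without mouse 2 and 5 without mouse 4, and 5 with control and 12000-fiber wells only.

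**Figure D5:**
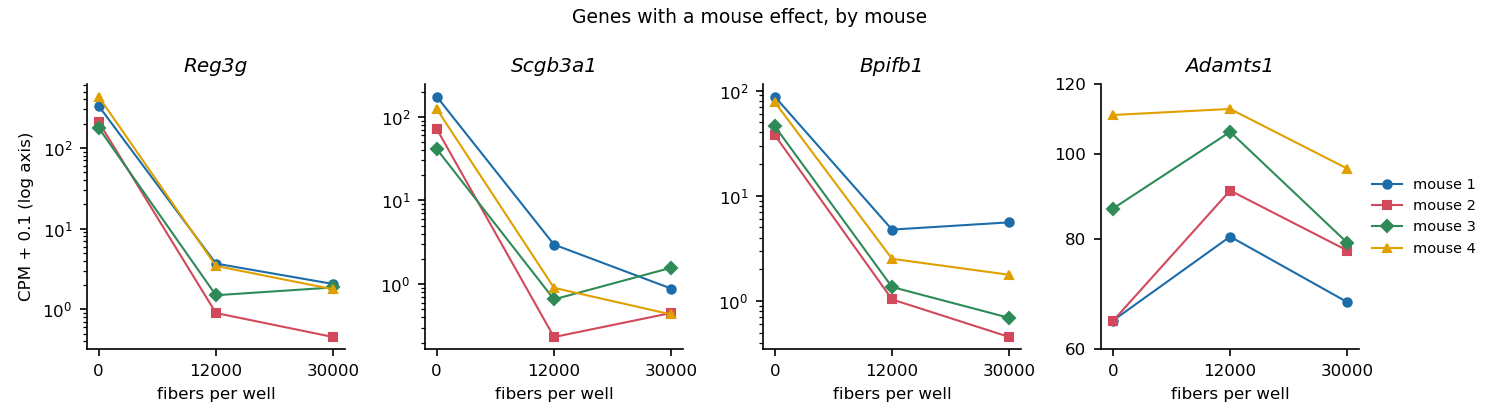
Level of 4 genes with a mouse effect in the 12 epithelial libraries (vertical log axis, CPM plus 0.1; horizontal axis, fibers per well). Lines join wells of the same mouse; Reg3g, Scgb3a1 and Bpifb1 drop to a few CPM or less with fibers, and Adamts1 keeps mouse 4 highest.

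The untreated profile was last set against the exposed fractions, to see which of its programs kept their level; both comparisons share the 4 control libraries. With 12000 fibers 2656 of 13759 genes were lower (19.3%) and 2575 higher (18.7%) by edgeR at an adjusted p under 0.05, which makes 38.0% in either direction. Of basal and secretory airway factors 24 of 34 were lower and 2 higher (median log2 change -0.64), while of lung endoderm and alveolar factors 6 of 26 were lower and 9 higher (median 0.08). Of Notch receptors and ligands 6 of 8 were lower and none higher, and of secretoglobins and airway secretory proteins 8 of 11 were lower and none higher (median -4.61). Growth factors went both ways, with 8 of 33 lower and 14 higher, and of TGF-beta and BMP receptors 2 of 12 were lower and 2 higher.

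Single genes of the untreated profile differed in the same comparison. Krt8 was at 1240.4 ± 141 CPM with 12000 fibers and rose by 0.37 ± 0.08 on the log2 scale (SE; edgeR adjusted p = 0.00185). Krt19, at 1032 ± 24.5 CPM, had a log2 change of -0.63 ± 0.08 (edgeR adjusted p = 7.52e-06), and Krt7, at 1483 ± 49.2 CPM, of -0.50 ± 0.08 (edgeR adjusted p = 4.07e-05). Krt18, at 1208 ± 56.3 CPM, did not pass (log2 0.15 ± 0.08, edgeR adjusted p = 0.134), although it passed when only these 2 groups were fitted (0.0470). Of these 4 keratin genes Krt8 was thus higher and Krt19 and Krt7 lower. Cbr2 fell to 100.2 ± 19.1 CPM (log2 -3.19 ± 0.26, edgeR adjusted p = 7.55e-06), Ecm1 to 258 ± 51.6 CPM (log2 -1.03 ± 0.17, edgeR adjusted p = 0.000688) and Msln to 751 ± 65 CPM (log2 -0.56 ± 0.12, edgeR adjusted p = 0.00133). Sftpc, at 2815 ± 791 CPM, did not pass (log2 0.75 ± 0.29, edgeR adjusted p = 0.0643), although it passed with DESeq2 (adjusted p = 0.0203), with transcripts summed (0.0439) and without the 12000-fiber library of mouse 3 (0.0453). The other marker genes were lower: Krt5 (log2 -3.75, edgeR adjusted p = 1.48e-05), Scgb3a2 (-5.65, 9.00e-06), Foxj1 (-1.25, 1.98e-06) and Epcam (-0.43, 0.00101).

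With 30000 fibers 4592 genes were lower (33.4%) and 4434 higher (32.2%), so 65.6% of all genes differed by edgeR at an adjusted p under 0.05. Of pan-epithelial genes 23 of 28 were lower and 1 higher, of airway factors 26 of 34 lower and 2 higher, and of integrins and matrix receptors 13 of 20 lower and 4 higher. Krt7 stood at 522 ± 34.8 CPM (log2 -2.01 ± 0.08, edgeR adjusted p = 3.58e-14) and Cbr2 at 148 ± 31 CPM (log2 -2.63 ± 0.26, edgeR adjusted p = 7.36e-06). Krt8 stood at 858 ± 40.7 CPM and did not pass (log2 -0.16 ± 0.09, edgeR adjusted p = 0.0951), but passed without control mouse 3 (0.0432). Sftpc was higher than in untreated wells (log2 1.11, edgeR adjusted p = 0.00675). The other marker genes were lower: Krt5 (log2 -5.25, edgeR adjusted p = 1.16e-06), Scgb3a2 (-5.15, 2.55e-05), Foxj1 (-2.06, 1.56e-08) and Epcam (-1.44, 1.43e-10). These libraries were shallower, with 6767842 to 9234052 counts, and mitochondrial genes took 15.6% ± 0.885 of their counts against 5.20 to 7.77% in controls. The summed level of the fibroblast list was 4597 to 4961 CPM with 12000 fibers and 6462 to 8183 CPM with 30000, above the 2033 to 4079 CPM of the untreated wells, and the part of these differences in the counts was not tested.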

How the data were processed

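RNA sequencing counts of 12 epithelial libraries (4 mice by 3 fiber numbers) were used. The submitters' processing notes list HISAT2 2.1.0, cutadapt 1.12, bcl2fastq and FastQC, with build mm10. The counting tool, strandedness and barcode handling were not given in the sources used here. Per Ensembl transcript, the authors deposited raw counts (71081 transcripts, 14557 genes), not normalized or pooled by the authors; no transcript had fewer than 60 counts over the 12 libraries. The fibroblast columns held 107814 rows that did not line up with the transcript identifiers (Spearman rho = 0.0467 with the epithelial columns), so the fractions were not compared. Groups and mouse numbers came from the sample titles. The labels name no batch.

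To represent a gene, the transcript with the largest mean over the 12 epithelial libraries was taken. CPM used the TMM-scaled total of these transcripts, 7204371 to 9743738 counts per control library, and lengths and coordinates came from GENCODE M21 (GRCm38, the mm10 assembly) for 14466 genes. Detection meant at least 1 CPM in all 4 libraries. Levels and spread carry no test. Log2 deviations were computed on CPM for genes that passed detection. The mouse effect and the fiber comparisons were fitted with edgeR 4.0.16 in R 4.3.3 (filterByExpr by group, TMM, robust glmQLFit and glmQLFTest, Benjamini-Hochberg over 13759 genes, adjusted p under 0.05) on all 12 libraries; SEs of log2 changes were derived from the F statistic. DESeq2 1.42.0, other scaling, no filter, summed transcripts, the replicate block and leaving out libraries were alternatives. The steps were tested on simulated data.

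Same-mouse libraries come from the same isolation. Their deviations from group means had r of -0.019 to 0.186 over 12 pairs, 6 of them over 0.1. Between libraries of different mice r ran from -0.215 to 0.125. In 8 of the 12 cases the library of the same mouse was the closest match in the other group. No test was made of this. The members, the 42 gene lists and the naming rule were chosen with earlier results of these data known. The rule named the 6 marker genes, the highest members of each list per kb and defining markers that were low, the 20 highest genes, mouse-effect genes of at least 10 CPM with the widest range, and the steadiest genes; predicted genes were left out. Bcan, H2-Q6 and other variable genes fall outside it and were chosen after their values were seen, as were some further list members named for their role. Of 985 listed genes 761 were measured, and the others were not analysed here. Promoters came from RefSeq (GRCm38.p6) for 10009 genes whose start lay within 500 bases of the representative transcript's. In the fiber comparisons p-values rest on the spread between mice within a fiber number, and only the replicate block took account of the shared isolations. Mouse-effect p-values rest on the spread left between wells after mouse and fiber number were fitted.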

Additional observations from a re-analysis of the deposited data

Results flagged for a closer look

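Of 282 group values of named genes checked, 4 had a single mouse far from the other 3; chance alone flags about 1 group in 20. Ager stood at 97.1 CPM in untreated mouse 1, below the 182 to 191 CPM of the others. H2-Q6 was at 29.9 CPM in untreated mouse 3, against 9.82 to 13.1 CPM. Mmp9 was at 7.16 CPM in untreated mouse 3, against 3.31 to 3.35 CPM. Numa1 was at 252 CPM in untreated mouse 4, against 377 to 395 CPM.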

How the results depend on the processing

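Levels of the 196 genes named in the text moved by no more than 1 SD with DESeq2 size factors or with the transcript chosen over controls only; leaving out 1 of 4 mice cannot move a mean by 1 SD and is no check of it. Without TMM scaling 20 moved further, and with all transcripts summed 145 did, among them Epcam (539 CPM), Krt8 (339), Sftpc (1005), Foxj1 (21.3) and Krt5 (247). The genes detected numbered 12245 to 13331 over these settings, 14013 at a threshold of 0.5 CPM and 10545 at 5 CPM. Genes with a CV above 50% numbered 56 to 273 when a mouse was left out. The mouse effect was called for 45 genes by DESeq2 and for 5 with transcripts summed or with control and 12000-fiber libraries only, and for 5 to 71 when a mouse was left out; the cause was not tested. The calls for 12000 fibers numbered 4441 to 5414 and those for 30000 fibers 8605 to 9008 when a library was left out. With the replicate block they were 5521 and 9141, and the block changed no call printed for a gene in the fiber comparisons. No result reversed. The number of mice limits precision, and the deepest control library had 28232472 counts, so levels near 1 CPM rest on few reads.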

Other observations

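The 81 ribosomal protein genes took 0.979%, 0.884%, 0.918% and 0.817% of the counts on representative transcripts in untreated mice 1 to 4, while the 20 highest genes took 10.9 to 13.1%. The 1000 highest genes held 49.9 to 51.3%.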
